A study of Mus musculus with 14 samples.

Results

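The clustered protocadherin genes are adhesion-receptor genes arrayed side by side on mouse chromosome 18. Members were taken by symbol: protein-coding genes on chromosome 18 (build mm10) whose names begin with Pcdha, Pcdhb or Pcdhg. The rule found 57 of 21883 protein-coding genes, 14 in the alpha subcluster (Pcdha1 to Pcdha12, Pcdhac1 and Pcdhac2), 22 in beta (Pcdhb1 to Pcdhb22) and 21 in gamma (12 of type a, 6 of type b and 3 of type c). The study profiled chromatin of C57BL/6J mouse embryonic stem cells (mESCs) that carry floxed Mll1 alleles and the Cre-ER TM transgene, by immunoprecipitation and sequencing. Both the floxed alleles and the transgene are shared by every group, the untreated cells included, and the promoter that drives Cre-ER TM is not given in the sources used here. The 3 conditions were no treatment, MM-401 (100 µM), which inhibits Mll1, and 4-OHT (4-hydroxytamoxifen, 5 µM), which activates the recombinase that deletes Mll1. Both treatments lasted 9 days over 3 passages. The labels give no day or passage for the untreated cells, so time in culture is not known to match. H3K4me1, H3K4me2 and H3K4me3 were profiled in each condition, and Mll1 in untreated cells only, so loss of Mll1 after 4-OHT was not checked in these lists. Every group is 1 library, no value has a replicate, and no test between conditions was possible.

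Clustered protocadherins are cell-surface proteins of the cadherin superfamily that give neurons their individual identity and let branches of one cell avoid each other. In the alpha and gamma subclusters each variable exon has its own promoter and is spliced to constant exons shared at the downstream end, while each beta gene is a single coding exon with its own promoter. Neurons choose alternative promoters largely at random, through CTCF, cohesin and distant enhancers, whereas the c-type genes are expressed more uniformly. Mll1 is one of the methyltransferases of lysine 4 on histone H3, and MM-401 blocks its interaction with WDR5. H3K4me3 typically marks promoters, H3K4me1 enhancers and promoter flanks, and H3K4me2 both.

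The data were 10 lists of enriched regions (peaks), each with its position, its width and its number of sequenced tags. Tags left after duplicate removal were 30.1 M for Mll1, M being 1000000. For untreated, MM-401 and 4-OHT cells in turn they were 36.9, 22.2 and 61.8 M for H3K4me1, 40.1, 19.8 and 48.6 M for H3K4me2, and 25.3, 12.9 and 26.4 M for H3K4me3. Levels are therefore given as tags in peaks per M such tags (tags per M), and intervals are exact 95% intervals for counting error only. MM-401 libraries had fewer tags than untreated ones, and 4-OHT libraries had more, which moves the smallest peak that can be called. The MM-401 libraries also had longer estimated fragments, at 208 to 293 bp against 179 to 197 bp for the marks in the other conditions. Per the file headers they were processed in a separate folder, so that batch and the inhibitor cannot be told apart. Both treatments are compared with the same untreated libraries. In these bulk samples, fewer cells with a mark and less of the mark per cell cannot be told apart. As a check on the label, all 8 embryonic stem cell marker genes had an H3K4me1 and an H3K4me2 peak within 1 kb of the start in untreated cells, and 7 had H3K4me3. Of 8 neural marker genes 7 had H3K4me3 there, and of 8 fibroblast marker genes 5 did. Over all genes the share with H3K4me3 was 67.4%, so these counts do not tell stem cells from neural cells.

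In untreated cells the locus carried many small, separate peaks over alpha and beta, and wider H3K4me1 peaks over gamma. The locus, taken from 5 kb before the first member to 5 kb after the last, runs over 921.6 kb (chromosome 18, 36925285 to 37846873). Alpha spans 258.6 kb (36930285 to 37188897), beta 256.4 kb (37264998 to 37521419) and gamma 180.1 kb (37661775 to 37841873), with gaps of 76.1 kb and 140.4 kb between them. The files and annotation used here do not place exons, so peaks are described by distance from a gene's start. Members were read from their lower coordinate: the 14 alpha genes end at 4 positions within 1240 bp of each other and the 21 gamma genes at 4 positions within 10 bp, whereas the 22 beta genes have 22 different ends and a median span of 3.42 kb. The read-through models, Gm37013, Gm38666 and Gm38667, start at Pcdha4, Pcdha6 and Pcdha7, and their signal cannot be separated from those members.

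Untreated cells had 76 H3K4me1, 96 H3K4me2 and 91 H3K4me3 peaks in the locus. H3K4me1 covered 10.1% of alpha, 11.1% of beta and 53.6% of gamma, and H3K4me3 covered 8.79%, 10.9% and 32.9%. Gamma, the shortest of the 3 subclusters, thus held the largest covered share of both marks. Summed H3K4me3 was 115 tags per M over alpha, 85.6 over beta and 435 over gamma. Median H3K4me1 peak width was 1347 bp in alpha, 1271 bp in beta and 2528 bp in gamma. The widest H3K4me1 peak of the locus, at 12834 bp, lay over Pcdhgc5.

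**Figure D1:**
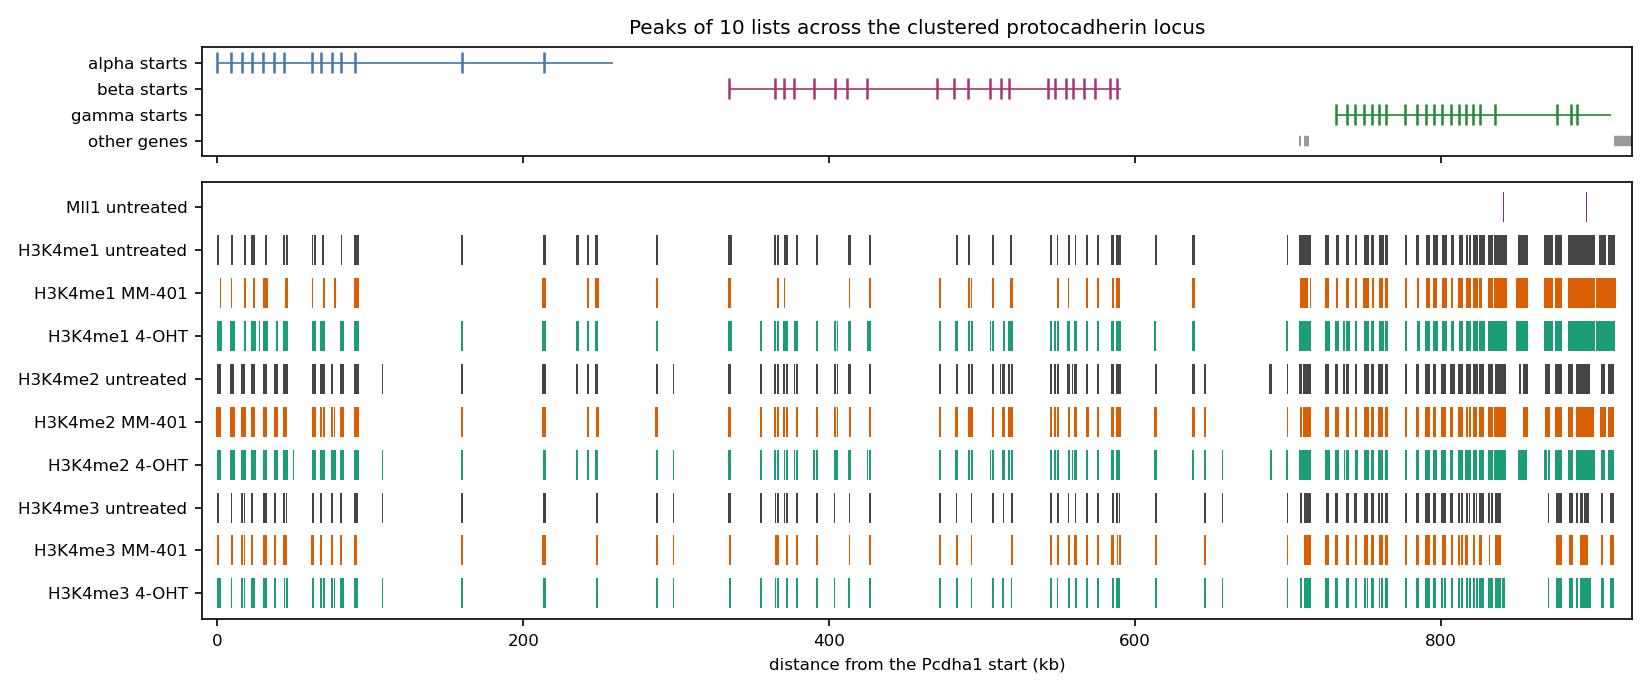
Peaks of the 10 lists along the locus, in kb from the Pcdha1 start, with 1 lane per list and member starts marked above. Peaks are drawn to scale except that the narrowest, the Mll1 peaks and a few mark peaks, are drawn wider. H3K4me1 covers 53.6% of gamma against 10.1% of alpha and 11.1% of beta in untreated cells.

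The position of the H3K4me3 summit differed between subclusters. All 14 alpha genes had an H3K4me3 summit within 1 kb of the start in untreated cells, at a median of 155 bp downstream for the 12 numbered genes. Of the 22 beta genes, 20 had a summit inside the gene, between 1730 and 2054 bp from the start with a median of 1951 bp. For 17 of the 22 it was the only kind of H3K4me3 summit found. Only Pcdhb1 and Pcdhb6 had a summit near the start alone, and Pcdhb2, Pcdhb3 and Pcdhb22 had both. Among all genes of known strand with an H3K4me3 peak from 1 kb before to 3 kb after the start, 9.86% (1196 of 12124) had their only summits 1 to 3 kb inside.

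The gamma genes divided by type. The 6 type b genes each had an H3K4me3 summit near the start (65 to 172 bp) and another inside (1825 to 1935 bp, median 1879 bp). Of the 12 type a genes, 11 had a summit near the start (median 132 bp) and 3 had one inside, at 2154 to 2493 bp. For H3K4me3, type b genes thus shared the inner position seen in beta while keeping the one at the start. For H3K4me2, 0 of the 6 had an inner summit in untreated cells. The inner H3K4me3 summit was present in all 3 conditions in 4 of the 6. In all 8 type a or b genes with untreated H3K4me3 at both places, the level was higher near the start. The 12 numbered alpha genes lay between the type a and type b patterns of H3K4me3, with 4 holding an inner summit at 1551 to 1950 bp.

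The inner beta summits were present after both treatments. H3K4me3 was there in 20 beta genes in untreated cells, 18 after MM-401 and 20 after 4-OHT, and 18 genes had it in all 3 conditions. H3K4me2 had it in 21 beta genes in each condition, the same 21 throughout, with an untreated median of 1948 bp. H3K4me1 had it in 16 genes untreated, 12 after MM-401 and 20 after 4-OHT. In untreated cells the only summits lay inside for H3K4me2 in 12 of 22 beta genes and for H3K4me1 in 14 of the 19 with a peak, against 16.6% and 22.6% of all genes of known strand with a peak in that window.

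**Figure D2:**
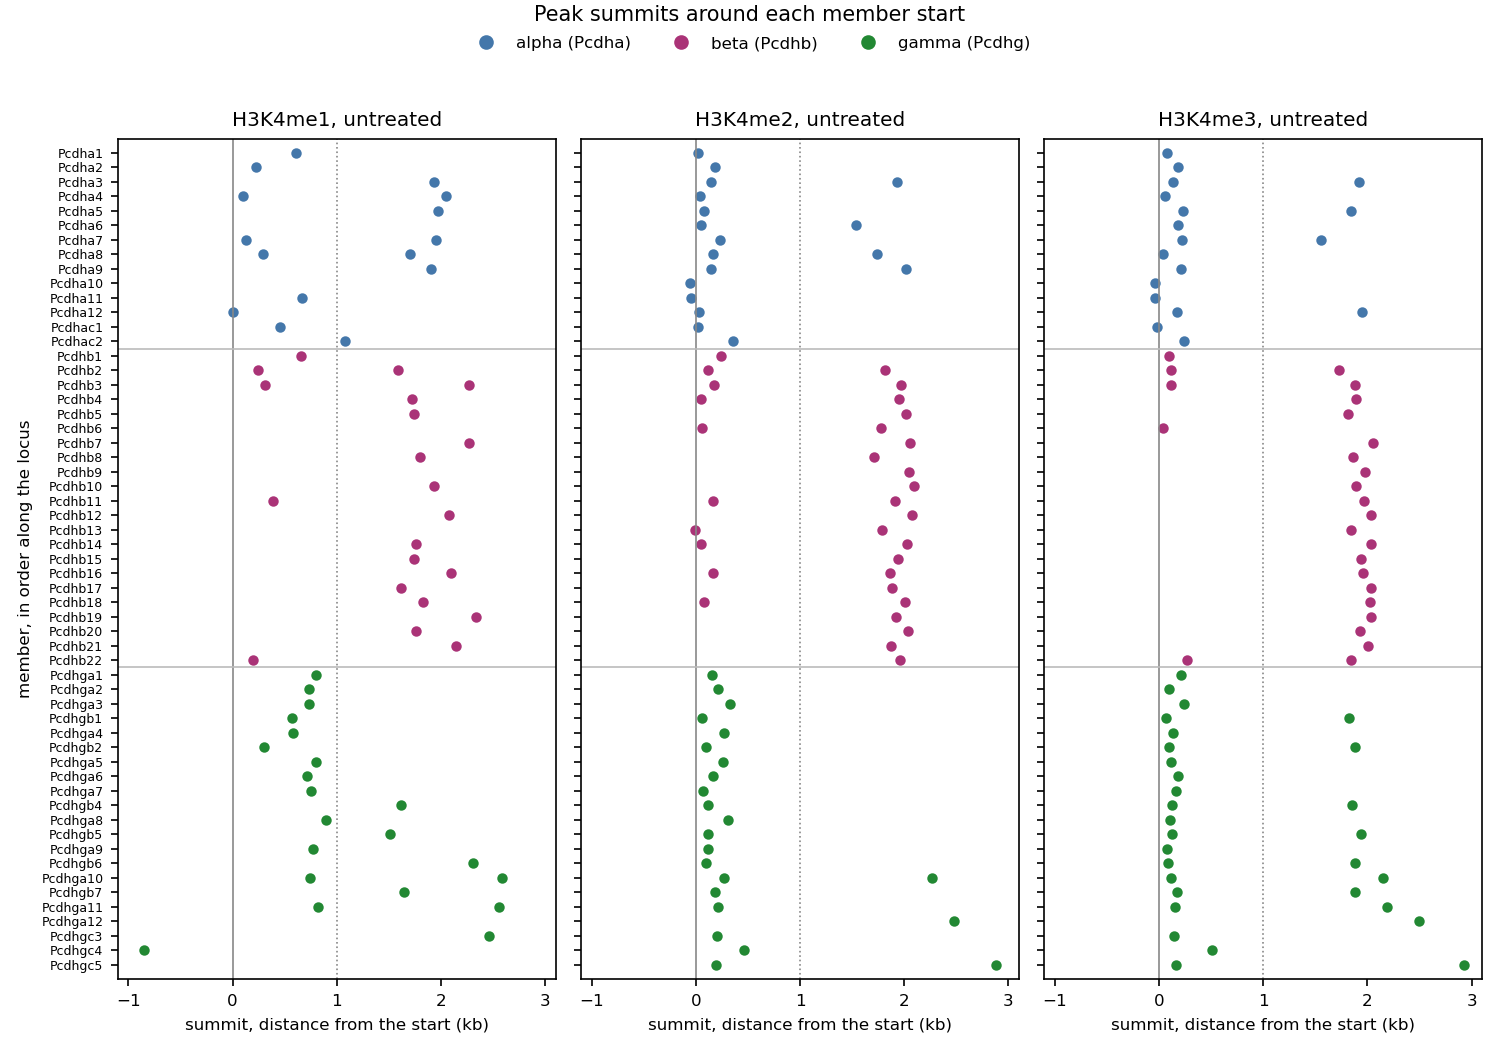
Positions of peak summits in untreated cells, in kb from each member's start, for H3K4me1, H3K4me2 and H3K4me3, with 1 point per summit and members ordered by subcluster. All 14 alpha genes have an H3K4me3 summit near the start, and 20 of 22 beta genes have one 1730 to 2054 bp inside.

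Because of this position, a window of 1 kb on each side of the start misses most of beta. With that window 40 of 57 members had an untreated H3K4me3 peak (67.4% of all genes did): all 14 of alpha, 5 of 22 of beta and all 21 of gamma. For H3K4me2 the count was 47 (70.1% of all genes) and for H3K4me1 35 (69.9%). The starts of 3063 of all genes were themselves placed by H3K4me3, and 1272 unplaced genes count as without a peak. The shares of all genes are thus partly set by that mark. In the window from 1 kb before to 3 kb after the start, chosen after the data were seen, all 57 members had H3K4me3 and H3K4me2 and 52 had H3K4me1, against 69.3%, 72.0% and 72.1% of all genes. After treatment, counts within 1 kb for H3K4me1, H3K4me2 and H3K4me3 were 33, 46 and 38 with MM-401 (65.8%, 68.1% and 64.6% of all genes) and 43, 48 and 39 with 4-OHT (71.0%, 70.4% and 67.3%). From 1 kb before to 3 kb after the start they were 47, 57 and 54 with MM-401 (68.1%, 69.8% and 66.3%) and 56, 57 and 57 with 4-OHT (72.9%, 72.3% and 69.3%). H3K4me2 was thus present at every member in each condition in the longer window. Member values below are for the longer window unless a distance of 1 kb is named. The 5 members without H3K4me1 there in untreated cells were Pcdha6, Pcdha10, Pcdhb6, Pcdhb9 and Pcdhb13.

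Levels per kb of peak were highest in gamma for all 3 marks, and lowest in beta for H3K4me3 and H3K4me2 and in alpha for H3K4me1. In the longer window, untreated H3K4me3 had a median of 4.13 tags per M per kb in alpha, 2.83 in beta and 8.12 in gamma, H3K4me2 had 3.37, 3.045 and 5.73, and H3K4me1 1.29, 1.45 and 1.81. The densest H3K4me3 was at Pcdhga8 (12.6 tags per M per kb, untreated), followed by Pcdhga7, then Pcdhga3 (11.5) and the c-type Pcdhac2 (11.5). The sparsest was at Pcdhb12 (1.395), Pcdhb13 (1.78) and Pcdhb6 (1.82). For peaks within 1 kb of the start, only 10.8% of genes with a peak lay below the alpha median and 24.2% below the gamma median for H3K4me3, so these promoters sat low in the range of marked genes. The 5 beta genes with such a peak had a median that 2.97% of genes lay below. Over the 40 members with both marks there, H3K4me2 and H3K4me3 per kb had a Spearman rho of 0.85, and over the 34 members with both, H3K4me1 and H3K4me3 had 0.33. Within alpha, beta and gamma the first was 0.53, 0.9 and 0.64. The second was 0.65 (9 genes), 0.0 (4 genes) and -0.28 (21 genes), so the pooled value did not hold inside each subcluster. These are descriptions across neighbouring genes of the same libraries, which share depth and input.

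Total H3K4me3 levels were high at the last alpha gene and at both ends of beta, while the highest gamma genes lay inside the subcluster. Untreated H3K4me3 was 24.4 tags per M at Pcdhac2 (MM-401 23.6, 4-OHT 22.45), the last alpha gene, while the other 13 alpha genes had 2.26 to 12.03 tags per M. In beta the first 3 genes and the last were high for the subcluster: Pcdhb1 had 6.53 tags per M (MM-401 5.34, 4-OHT 6.93), Pcdhb2 7.56, Pcdhb3 6.06 and Pcdhb22 7.16, and the other 18 had 1.11 to 5.90. In gamma, Pcdhgc3 had the most, at 41.4 tags per M (MM-401 46.2, 4-OHT 47.1). Pcdhga12 came next with 38.4 (MM-401 34.97, 4-OHT 46.45), in 1 peak whose untreated summit lay 2493 bp inside. Upstream of it, the start of the transcribed pseudogene Pcdhgb8 carried 7.40 tags per M of H3K4me3 in untreated cells, 2.40 after MM-401 and 11.96 after 4-OHT. Its H3K4me1 peak reaches the window of Pcdhga12, so the H3K4me1 of Pcdhga12 (37.7, 40.8 and 36.1 tags per M) includes it.

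**Figure D3:**
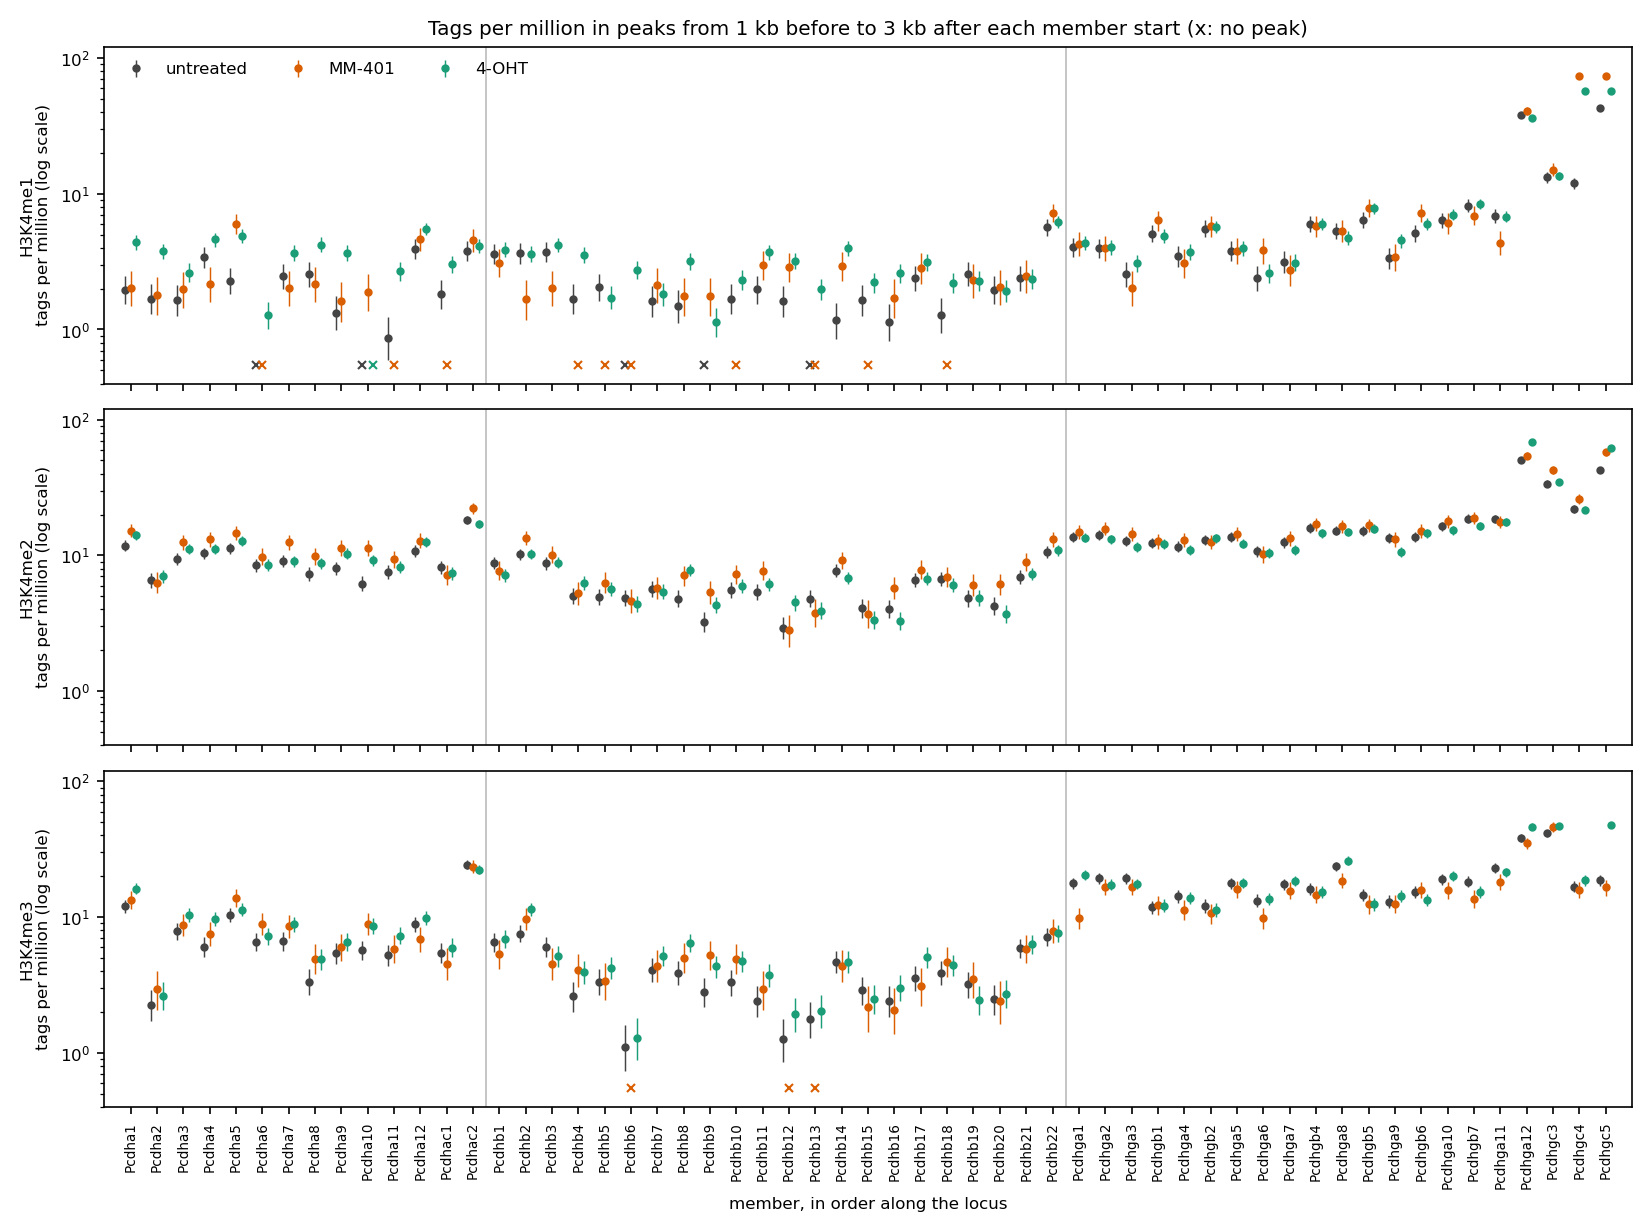
Tags per M of peaks from 1 kb before to 3 kb after each member's start, on a log axis, for the 3 marks and 3 conditions, with exact 95% Poisson intervals and crosses for members without a peak. The 3 lowest untreated H3K4me3 values are those of Pcdhb6, Pcdhb12 and Pcdhb13, and Pcdhgc3 is the highest at 41.4 tags per M in untreated cells.

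The Mll1 list held 2 of its 4004 peaks in the locus (0.05%), both in gamma and neither at a start. One (37771245 to 37771415, 171 bp, 11 tags) lay 5665 bp after the Pcdhga12 start, and the other (37825010 to 37825202, 193 bp, 12 tags) lay 5464 bp after the Pcdhgc5 start. The first overlapped peaks of 7 of the 9 mark lists and the second peaks of all 9. No member had an Mll1 peak within 1 kb of its start, or in the longer window, against 3.65% and 4.92% of all genes. With shares this small over all genes, the absence does not set the members apart. The Mll1 list was short, with 4004 peaks and 0.285% of tags in peaks. The library had 30.1 M tags and an estimated fragment length of 53 bp. Binding too weak to be called as a peak would not appear in the list, and why the list was short was not tested.

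After 4-OHT, H3K4me1 was higher over alpha and beta, and H3K4me2 and H3K4me3 differed less. Over the whole locus H3K4me1 was 360 tags per M in untreated cells and 421 after 4-OHT, a log2 ratio of 0.22 (0.19 to 0.26) against 0.08 for all peaks of the lists. Alpha had 37.4 tags per M untreated and 57.1 after 4-OHT (log2 ratio 0.61, 0.52 to 0.70) and beta had 43.3 and 65.0 (0.59, 0.50 to 0.67), while gamma was 246.5 and 262 (0.09, 0.05 to 0.12). The covered length went from 26.1 to 39.7 kb in alpha and from 28.4 to 46.4 kb in beta, and the level per kb of peak was 1.41 and 1.42 in alpha and 1.48 and 1.38 in beta. The larger sums thus came with a longer covered length and a similar level per kb. The 4-OHT library had 167.5% of the untreated tags. With each list reduced to its 82150 highest-scoring peaks the log2 ratios were 1.32, 0.99 and 0.09 for alpha, beta and gamma.

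Member by member, calls were most frequent in alpha. Within 1 kb of the start, 17 of 43 members with an H3K4me1 peak in either list were at least 1.5-fold higher after 4-OHT or had a peak there only after 4-OHT (20.3% of all genes), and 0 were lower (3.73%). Of these, 8 were among 11 alpha genes, 6 among 11 beta genes and 3 among 21 gamma genes. Over the longer window 20 of 56 were higher (18.9% of all genes) and 0 lower (3.59%): 9 of 13 in alpha, 10 of 22 in beta and 1 of 21 in gamma. The 1 gamma gene was Pcdhgc4, also among the 3 called within 1 kb. Its peak was joined to that of Pcdhgc5 after 4-OHT, and over the stretch of both peaks the log2 ratio was 0.07. Median log2 ratios in the longer window were 0.73 for alpha, 0.40 for beta and 0.07 for gamma, beside 0.17 for all genes. Over the 57 members together, the share called higher within 1 kb was above the background share, and it was highest in alpha.

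In the longer window, Pcdhb14 had the largest H3K4me1 ratio after 4-OHT among the alpha and beta genes with a peak in both lists, with 1.17 tags per M untreated, 2.93 after MM-401 and 3.98 after 4-OHT (4-OHT log2 ratio 1.77, 1.30 to 2.28). Pcdha11 had 0.868 tags per M untreated, no peak after MM-401 and 2.67 after 4-OHT (1.62, 1.07 to 2.22). Pcdha9 had 1.33, 1.62 and 3.66 tags per M (1.46, 1.01 to 1.94). In each of them the 4-OHT library was the highest of the 3. The largest alpha ratios within 1 kb of the start were instead those of Pcdha8 (2.15) and Pcdha7 (1.91). Their peaks there were wider after 4-OHT (log2 width ratios 1.69 and 1.73). In the longer window their ratios were only 0.72 and 0.57. Pcdha1, the first gene of the array, had 1.95, 2.02 and 4.37 tags per M (1.16, 0.78 to 1.56), and Pcdha2 had 1.68, 1.80 and 3.76 (1.16). Pcdha5 had 2.28, 5.99 and 4.87 tags per M and was thus higher after both treatments. Peaks of H3K4me1 appeared in the longer window after 4-OHT at Pcdha6 (1.28 tags per M), Pcdhb6 (2.75), Pcdhb9 (1.13) and Pcdhb13 (1.98), and Pcdhb9 also gained one after MM-401. For the 18 gamma type a and b genes the log2 ratios after 4-OHT ran from -0.16 to 0.44 in the longer window. They ran to 1.33 within 1 kb of the start, with Pcdhga10 (1.33) and Pcdhga11 (0.94) called higher. In the longer window Pcdhga10 had 0.14 and Pcdhga11 -0.02, so these calls depended on the window.

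H3K4me3 after 4-OHT was slightly higher over the whole locus, with 756 tags per M untreated and 848 after 4-OHT (log2 ratio 0.17, 0.14 to 0.19, against 0.09 for all peaks). Within 1 kb of the start, 0 of 40 members were called higher (3.39% of all genes) and 1, Pcdhb3, lower (2.49%). From 1 kb before to 3 kb after it 9 of 57 were higher (3.37%) and 0 lower (2.47%), and 6 of the 9 were beta genes, whose H3K4me3 lies inside the gene. The result thus depends on the window. Pcdhb8 had 3.88 tags per M untreated, 5.03 after MM-401 and 6.44 after 4-OHT (4-OHT log2 ratio 0.73), and Pcdha4 had 6.06, 7.58 and 9.73 (0.68). Pcdhb2 had 7.56, 9.75 and 11.4 tags per M (0.60). All 12 numbered alpha genes had a log2 ratio above 0 after 4-OHT in the longer window, with a median of 0.41 beside 0.01 for all genes.

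H3K4me2 after 4-OHT was close to untreated. The locus had 804 tags per M untreated and 853 after 4-OHT (log2 ratio 0.09, 0.06 to 0.11, against 0.12 for all peaks), and the ratio was -0.04 when scaled to tags in peaks. Within 1 kb of the start 5 of 49 members were higher (4.95% of all genes) and 2 lower (2.05%). Over the longer window 2 of 57 were higher (4.71%), Pcdhb8 (4.82 tags per M untreated, 7.12 after MM-401, 7.76 after 4-OHT) and Pcdhb12 (2.92, 2.83 and 4.51), and 0 were lower (1.95%).

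**Figure D4:**
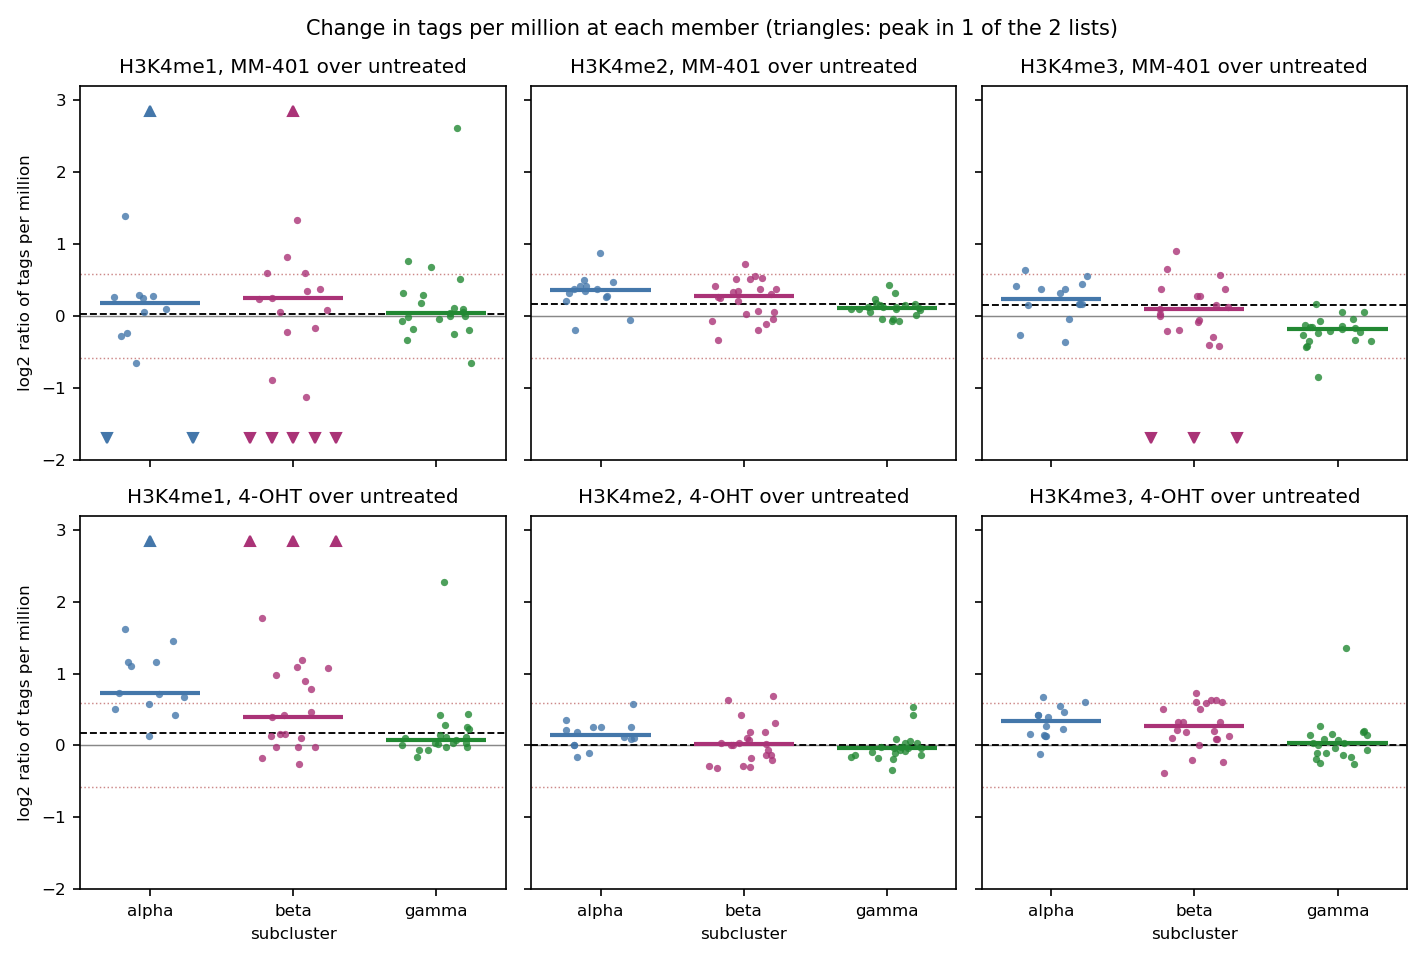
Log2 ratio of treated to untreated tags per M for each member, from 1 kb before to 3 kb after the start, by subcluster, mark and treatment. Bars are medians, the dashed line is the median of all genes, dotted lines mark 1.5-fold and triangles are members with a peak in only 1 of the lists. H3K4me1 after 4-OHT has medians of 0.73 in alpha, 0.40 in beta and 0.07 in gamma.

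After MM-401, gamma had less H3K4me3, the c-type end of gamma had more H3K4me1, and some alpha and beta peaks were no longer called. Gamma H3K4me3 was 435 tags per M untreated and 378 after MM-401 (log2 ratio -0.20, -0.25 to -0.15), alpha had 115 and 127 (0.15, 0.06 to 0.24) and beta 85.6 and 85.95 (0.01, -0.10 to 0.11). Of 21 gamma genes 18 had, in the longer window, a ratio below 0, and only Pcdhgb1, Pcdhgb6 and Pcdhgc3 one above 0. The gamma median was -0.18, while all genes had a median of 0.15 and 10166 of 14495 ratios above 0. Alpha had a median of 0.24, with 11 of 14 above 0. With the lists reduced to 32191 peaks each, the gamma ratio was -0.15.

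For H3K4me3 after MM-401, 5 of 41 members were called higher within 1 kb of the start (2.09% of all genes) and 4 lower (9.26%). In the longer window 3 of 57 were higher (1.93%) and 4 lower (9.68%). Pcdhga1, the first gamma gene, had 17.8 tags per M untreated, 9.83 after MM-401 and 20.4 after 4-OHT (MM-401 log2 ratio -0.85, -1.15 to -0.57). It was the only member with an H3K4me3 peak in both lists that was lower by the 1.5-fold rule in the longer window. Other type a genes were also below untreated, for example Pcdhga6 (13.2 untreated, 9.83 after MM-401, 13.6 after 4-OHT) and Pcdhga8 (23.7, 18.6 and 26.05). Pcdhgc3, a c-type gene, went the other way, with 41.4, 46.2 and 47.1 tags per M.

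The other 3 members called lower were Pcdhb6, Pcdhb12 and Pcdhb13, whose H3K4me3 peaks were not called after MM-401. Their untreated levels, 1.11, 1.27 and 1.78 tags per M, were the 3 lowest of all members. Pcdhb6 had 28 tags in untreated cells, which is 14.3 tags at the depth of the MM-401 library, whose smallest peak held 13. At the level of Pcdhb6 a loss and the lower depth cannot be told apart. The peaks of Pcdhb12 and Pcdhb13 had 32 and 45 tags in untreated cells, and why they were not called after MM-401 was not tested. Members higher in H3K4me3 after MM-401 were Pcdhb9 (2.81 tags per M untreated, 5.26 after MM-401, 4.35 after 4-OHT, log2 ratio 0.90 for MM-401), Pcdhb4 (2.61, 4.10 and 3.94, log2 ratio 0.65) and Pcdha10 (5.70, 8.90 and 8.63, log2 ratio 0.64). All 3 were above untreated after 4-OHT as well, against the same untreated library.

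For H3K4me1 after MM-401, gamma had 246.5 tags per M untreated and 288 after MM-401 (log2 ratio 0.23, 0.18 to 0.27), alpha 37.4 and 36.8 (-0.02, -0.15 to 0.10) and beta 43.3 and 39.8 (-0.12, -0.24 to 0.00). Most of the gamma difference lay at its c-type end, which had 101 tags per M untreated and 141 after MM-401. Of the 18 type a and b genes 9 had a ratio above 0 in the longer window. The alpha and beta values depended on the list: with equal numbers of peaks they were 0.90 and 0.70, and with only peaks scoring at least 100 they were -0.13 and -1.19. Within 1 kb of the start 8 of 37 members were higher (7.59% of all genes) and 6 lower (17.7%). In the longer window 10 of 54 were higher (6.35%) and 11 lower (16.7%), of which 7 had no peak after MM-401: Pcdha11, Pcdhac1, Pcdhb4, Pcdhb5, Pcdhb10, Pcdhb15 and Pcdhb18. Pcdhgc4 and Pcdhgc5 are among the higher members in both windows, and after MM-401 the same joined peak is counted for both. Pcdhb2 had 3.63 tags per M untreated, 1.665 after MM-401 and 3.60 after 4-OHT (MM-401 log2 ratio -1.13), so that only the MM-401 library was low.

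H3K4me2 after MM-401 was higher over the locus, at 804 tags per M untreated and 923 after MM-401 (log2 ratio 0.20, 0.17 to 0.23, against 0.02 for all peaks). By subcluster the log2 ratios were 0.29 in alpha, 0.24 in beta and 0.16 in gamma. The member median of 0.21 in the longer window was close to the 0.17 of all genes, and 46 of 57 ratios were above 0. Within 1 kb of the start 5 of 47 were higher (2.83% of all genes) and 3 lower (5.01%). In the longer window 2 of 57 were higher (2.46%), Pcdha10 (6.19 tags per M untreated, 11.4 after MM-401, 9.20 after 4-OHT) and Pcdhb9 (3.245, 5.35 and 4.34), and 0 were lower (5.4%).

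Smaller shares of the locus peaks than of all peaks in the lists were without a partner after MM-401. Of 76 untreated H3K4me1 peaks 17 had no overlapping MM-401 peak (22.4%, exact Clopper-Pearson interval 13.6% to 33.4%), against 34.4% of the whole list. For H3K4me2 it was 9 of 96 (9.38%, against 33.8%) and for H3K4me3 15 of 91 (16.5%, against 38.2%). The lost H3K4me1 peaks had 32 to 123 tags in untreated cells, with a median of 61. Why they were not called after MM-401 was not tested. After 4-OHT 0 of 76, 1 of 96 and 1 of 91 peaks were lost, against 9.35%, 6.44% and 8.19% of the lists. Peaks found only after MM-401 were 4 of 61 for H3K4me1 (3.36% of the list), 2 of 91 for H3K4me2 (2.7%) and 0 of 74 for H3K4me3 (0.864%). H3K4me1 gained 14 of its 82 peaks of the locus after 4-OHT (17.1%, against 16.7%), H3K4me2 5 of 99 (5.05%, against 18.2%) and H3K4me3 5 of 92 (5.43%, against 15.6%).

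The c-type end of gamma carried the broadest H3K4me1 of the locus and differed from untreated in both treatments. This stretch holds Pcdhgc3, Pcdhgc4 and Pcdhgc5 and the shared downstream end of all gamma genes (40.5 kb, 37801410 to 37841873). H3K4me1 there was 101 tags per M untreated, 141 after MM-401 and 116 after 4-OHT. H3K4me3 was 101, 99.5 and 135. For H3K4me1 within 1 kb of the start, the median of these 3 genes per kb lay above 86.1% of all genes with a peak in untreated cells. In the same measure 4.30% of genes lay below the alpha median, 10.9% below the beta median and 24.8% below that of the gamma type a and b genes.

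Inside the stretch the marks differed by block, a block being a run of merged H3K4me1 peaks. At the Pcdhgc3 start (-1.43 to 3.28 kb) H3K4me1 was 13.2 tags per M untreated, 15.0 after MM-401 and 13.6 after 4-OHT. From 6.75 to 24.95 kb, over the starts of Pcdhgc4 and Pcdhgc5, it was 54.75, 73.1 and 57.3 tags per M (log2 ratio for MM-401 0.42, 0.32 to 0.51, and for 4-OHT 0.07, -0.01 to 0.14). H3K4me3 in the same block was 44.8, 45.95 and 66.3 tags per M (0.04, -0.11 to 0.18, and 0.57, 0.46 to 0.68). The middle block thus had more H3K4me1 after MM-401 and more H3K4me3 after 4-OHT.

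The last block, from 25.52 to 38.31 kb, lies at the shared gene end and overlaps the lower end of the neighbouring gene Diaph1. H3K4me1 there was 26.2 tags per M untreated, 45.1 after MM-401 and 32.9 after 4-OHT (log2 ratios 0.78, 0.65 to 0.91, and 0.33, 0.22 to 0.44). H3K4me3 was 14.9, 7.35 and 21.2 tags per M (-1.02, -1.36 to -0.69, and 0.51, 0.32 to 0.70). H3K4me3 at the gene end was thus lower after MM-401 and higher after 4-OHT, while H3K4me1 was above untreated in both. H3K4me2 was 26.96, 33.5 and 35.2 tags per M.

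Values of single genes in this stretch move with the joining of peaks. Untreated H3K4me1 peaks of 5018 and 12834 bp were 1 peak of 18190 bp after MM-401 and of 18135 bp after 4-OHT. Pcdhgc4 therefore went from 11.9 tags per M to 73.1 and 57.3 with the same peak counted for Pcdhgc5 (42.85 untreated, then 73.1 and 57.3), and the block values are the ones to compare. Pcdhgc5 H3K4me3 was 18.6 tags per M untreated, 16.6 after MM-401 and 47.6 after 4-OHT, the last with a 6987-bp peak.

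**Figure D5:**
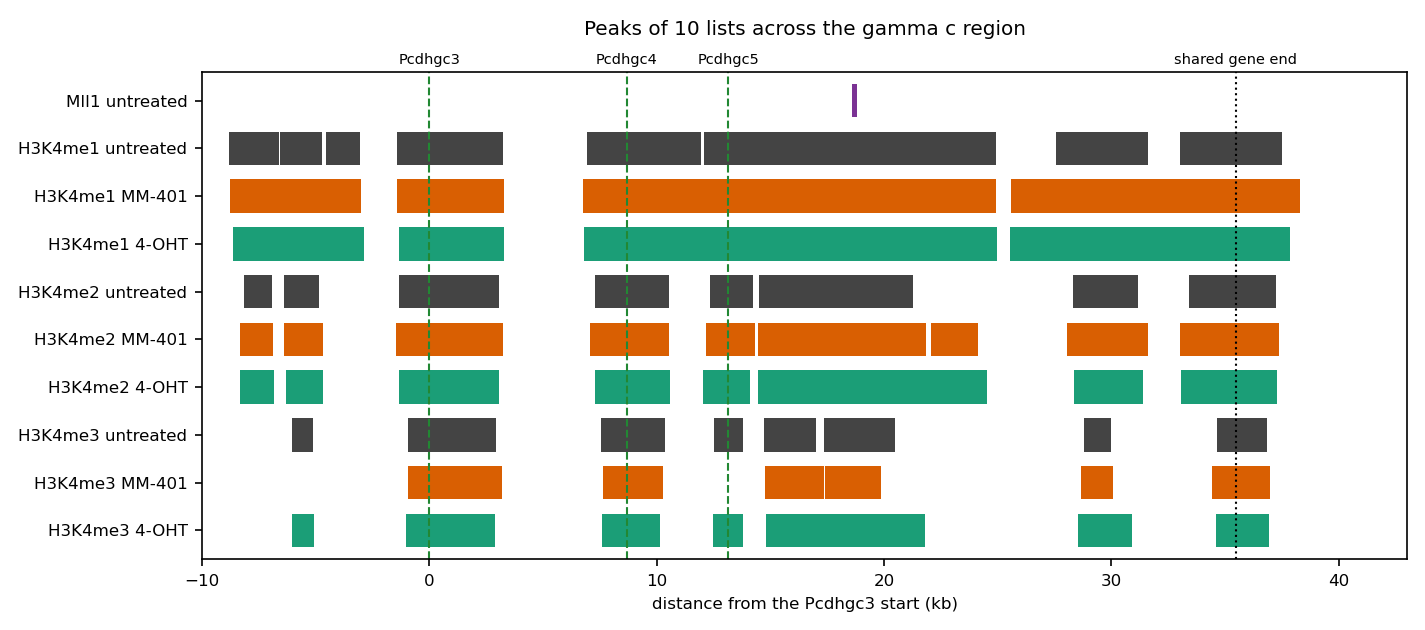
Peaks of the 10 lists over the c-type end of gamma, in kb from the Pcdhgc3 start, with the 3 gene starts and the shared gene end marked. The H3K4me1 peaks from 6.75 to 24.95 kb are 2 in untreated cells and 1 after each treatment.

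Some marked regions lay far from any member's start. Apart from peaks at member starts, merged peaks made 64 regions in the locus, of which 22 lay outside the window from 1 kb before to 3 kb after every start, and 4 of these 22 were in all 9 mark lists. Between alpha and beta, 46.3 kb before Pcdhb1 (37216744 to 37218694), untreated H3K4me3 was 4.95 tags per M (4.12 to 5.89), with MM-401 it was 10.3 (8.62 to 12.2), and with 4-OHT it was 5.98 (5.09 to 6.99), and H3K4me2 was 7.69, 11.2 and 7.14. Only the MM-401 library was high there. Behind Pcdhac2, 33.7 kb after its start (37177331 to 37179543), H3K4me1 was 4.58, 3.51 and 3.98 tags per M and H3K4me3 3.72, 2.24 and 2.46, both highest in untreated cells.

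Within gamma, 13.8 kb after the Pcdhga12 start (37779366 to 37787381, 8016 bp), H3K4me1 was 20.7 tags per M untreated, 18.2 after MM-401 and 21.4 after 4-OHT, with no H3K4me3 peak in any of the 3 lists. H3K4me2 there was 8.34, 5.20 and 12.1 tags per M. A region 4.2 kb before Pcdhga1 (37654547 to 37657534) had H3K4me3 of 22.1, 23.5 and 25.4 tags per M, so that the lower value at Pcdhga1 after MM-401 was not shared by its upstream neighbour. Taf7, a transcription factor gene between beta and gamma, had 72.8, 89.7 and 77.4 tags per M of H3K4me3.

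Non-clustered protocadherin genes and genes for regulators mostly carried all 3 marks in untreated cells. Of the 12 non-clustered protocadherins, 11 had all 3 marks within 1 kb of the start, with a median H3K4me3 of 8.74 tags per M per kb beside 14.36 for all genes. After MM-401 2 of the 11 were higher (2.09% of all genes) and 0 lower (9.26%) in H3K4me3, and after 4-OHT 2 were higher (20.3%) and 0 lower (3.73%) in H3K4me1. The other way round, H3K4me1 after MM-401 had 2 higher (7.59%) and 2 lower (17.7%). H3K4me3 after 4-OHT had 2 higher (3.39%) and 1 lower (2.49%). All 17 genes for regulators of protocadherin choice and silencing, among them Ctcf, the cohesin genes and Smchd1, had all 3 marks in untreated cells, with a median H3K4me3 of 14.1 tags per M per kb. In H3K4me1, 7 of the 17 were higher after 4-OHT (20.3% of all genes) and 0 lower (3.73%), and in H3K4me3 after MM-401 0 were higher (2.09%) and 1 lower (9.26%). H3K4me1 after MM-401 had 2 higher (7.59%) and 3 lower (17.7%), and H3K4me3 after 4-OHT 0 higher (3.39%) and 0 lower (2.49%). Of the 9 genes for partners of the cytoplasmic tails, such as the kinase gene Ptk2 and the WAVE complex gene Cyfip1, 8 had H3K4me3 (median 18.9 tags per M per kb), and 5 of those 8 were higher in H3K4me1 after 4-OHT (20.3% of all genes).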

How the data were processed

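Peaks came from the 10 precipitated libraries; the 4 inputs entered only as controls of the peak calls. Per the file headers, the authors called peaks per library with MACS 1.4.2 on mm10 (p cutoff 1e-05, genome size 2.7e+09, band width 300 bp), while the submitters' processing notes name Bowtie2, SAMtools 1.5 and MACS2. The deposited counts are tags in a peak after duplicate removal. The deposited score is the negative log10 p times 10. It was used to rank peaks and, in alternatives, to keep only peaks scoring at least 100. The deposited ratio is fold enrichment at the summit and was not compared, and the deposited percent is each peak's false discovery rate, at most 2.7% for peaks in the locus. Peak width is the deposited end minus start plus 1.

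Tags of every peak overlapping a window by at least 1 bp were summed and divided by filtered tags in units of 1000000. Where peaks are wide, neighbouring members can share a peak. Gene starts came from the annotated strand for 17491 genes, from the end with more H3K4me3 for 3063, and from the lower coordinate for the 57 members, and 1272 genes could not be placed and count as without a peak. A gene was called when it differed by at least 1.5-fold or had a peak in only 1 list. The window from 1 kb before to 3 kb after the start, summit places, lists of equal length for calls and subclusters, and the locus without the peaks at Taf7, Slc25a2 and Diaph1 were added after the data were examined. Every member could be named, and beside them the fixed lists of other protocadherins, regulators, tail partners and cell type markers, and other genes in the window. The members and lists were chosen with earlier results of these data known. Intervals (95%) are exact Poisson, Clopper-Pearson or, for ratios, conditional binomial ones, and cover counting error only. The calling script was tested on simulated data. Python 3.11.15, pandas 2.3.3, numpy 2.4.6, SciPy 1.17.1 and matplotlib 3.10.9 were used.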

Additional observations from a re-analysis of the deposited data

How the results depend on the processing

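No paired analysis was possible because each group is 1 library. Of 178 values under alternatives, 37 moved past the limits set for a change and 141 did not. Those limits were wide, so the 141 are not all stable. Among them are the covered lengths and the balance of calls described below as turned. Another is the count of members with an untreated H3K4me1 peak, 35 within 1 kb and 52 within 2 kb of the start. Small log2 ratios of locus tags turned sign: H3K4me1 with MM-401 from 0.14 to -0.01, H3K4me2 with 4-OHT from 0.09 to -0.04 and H3K4me3 with MM-401 from -0.05 to 0.03. With equal numbers of peaks the covered length with MM-401 turned from -0.12 to 0.19 for H3K4me1, from -0.04 to 0.10 for H3K4me2 and from -0.05 to 0.22 for H3K4me3. The balance of calls turned too, with 6 higher and 9 lower in H3K4me1 with MM-401 at a score of at least 100, against 8 and 6. For log2 ratios of locus tags, peaks scoring at least 100 gave -0.01 (H3K4me1, MM-401), 0.28 (H3K4me1, 4-OHT) and -0.09 (H3K4me3, MM-401), and equal numbers of peaks gave 0.32 and 0.30 (H3K4me1, MM-401 and 4-OHT), 0.24 (H3K4me2, MM-401) and 0.03 (H3K4me3, MM-401). Scaling to tags in peaks gave 0.27 and 0.15 (H3K4me1, MM-401 and 4-OHT), -0.04 (H3K4me2, 4-OHT), and -0.10 and 0.08 (H3K4me3, MM-401 and 4-OHT). For members called, a score of at least 100 gave 1 lower in H3K4me2 and 1 higher in H3K4me3 after 4-OHT. Equal numbers of peaks gave, after MM-401, 1 lower in H3K4me1 and 1 lower in H3K4me3, and, after 4-OHT, 1 lower in H3K4me1, 3 higher and 1 lower in H3K4me2, and 1 higher and 0 lower in H3K4me3. Tags in peaks as the scale gave 3 higher and 4 lower in H3K4me2 after 4-OHT. A fold of 2 gave 3 higher in H3K4me2 and 2 higher in H3K4me3 after MM-401, and 2 higher and 1 lower in H3K4me2 after 4-OHT. Sharing tags out by overlap gave 2 higher in H3K4me3 after MM-401 and 2 lower after 4-OHT. The window from 1 kb before to 3 kb after the start gave 11 lower in H3K4me1, 2 higher and 0 lower in H3K4me2 and 3 higher in H3K4me3 after MM-401, and 2 higher and 0 lower in H3K4me2 and 9 higher and 0 lower in H3K4me3 after 4-OHT. The cause of these differences was not tested. The count of members higher in H3K4me1 after 4-OHT ran from 12 to 20 over all alternatives, against 17. Depth limits the weakest peaks: relative to untreated, MM-401 libraries had 60.25% of the tags for H3K4me1, 49.5% for H3K4me2 and 51.2% for H3K4me3.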
